A study of Mus musculus with 6 samples.

Results

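The 8 genes described here encode the glucocorticoid receptor (Nr3c1), the related mineralocorticoid receptor (Nr3c2) and 6 chaperones and co-chaperones that hold the receptor before it meets its hormone. The chaperone genes are Hsp90aa1 and Hsp90ab1, the heat shock proteins HSP90α and HSP90β; Ptges3, the co-chaperone p23; Stip1, the adaptor HOP; and Fkbp4 and Fkbp5, the immunophilins FKBP52 and FKBP51. They were chosen by symbol and role, not by a threshold on their values, with earlier results of these data known, and all 8 were found among the 37620 genes of each deposited count table. RNA sequencing was done on early red cell progenitors, the burst-forming unit erythroid cells (BFU-E), from E14.5 fetal livers of 129/SvImJ mice. All cells had been depleted of lineage-positive, Sca-1+, CD16/32+, CD41+ and CD34+ cells and then sorted as c-kit+ cells within the 10% lowest for CD71. The serum-free medium held erythropoietin at 2 U/mL, IGF-1 at 40 ng/mL and stem cell factor (SCF) at 100 ng/mL. Cells were untreated, treated with 100 nM dexamethasone (Dex), a synthetic glucocorticoid, or treated with 100 nM Dex and 10 µM GW7647, an agonist of the nuclear receptor PPARα. Each group had 2 libraries, and no group had GW7647 without Dex. The treatment labels give 12 h, the column headers of 1 deposited table carry 36 h, and whether the untreated cells stayed in culture for the same time is not stated. The labels do not say whether the libraries of a group came from separate cultures, so the p-values below measure only the spread between these libraries, which may be technical.

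The receptor without hormone is kept in a form that can bind it by a cycle of chaperones. HOP (Stip1) passes the receptor from HSP70 to HSP90, p23 (Ptges3) stabilises the mature complex, and FKBP51 or FKBP52 occupies the remaining docking site on HSP90. FKBP51 lowers the receptor's affinity for hormone, while FKBP52 links the complex to dynein and favours transport to the nucleus, where the receptor activates or represses genes. Fkbp5 is itself a well-known target of the receptor in many tissues, with receptor binding sites in its introns, which closes a short negative feedback loop. Glucocorticoid signalling is known to prolong the self-renewal of BFU-E.

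The libraries held from 35970286 to 54174801 counts. Markers of the erythroid lineage (9 genes, among them Gata1, Klf1, Epor and the globins) summed to between 951098 and 2204423 normalized counts in every library, far above the sum of any other cell type's list. In this text a normalized count is a read count divided by its library's size after TMM scaling (trimmed mean of M values), on the scale of the average library. Of all genes, 14125 had enough counts to be tested with edgeR's quasi-likelihood test, and 7 of the 8 members were among them. A gene is said to rise or fall where the Benjamini-Hochberg adjusted p over all tested genes was below 0.05.

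Per kilobase of exon, the chaperones were abundant and the receptor was of middling level. In untreated cells Hsp90ab1 stood at 52400 normalized counts per kilobase, above 99.8% of the 13577 tested genes with an exon length. Hsp90aa1 followed at 13800 per kilobase, then Fkbp4 at 7370, Stip1 at 7190 and Ptges3 at 3410. Nr3c1 stood at 361 per kilobase, above 59.6% of genes, and Fkbp5 at 184, above 45.5%. Nr3c2 came last at 0.457 per kilobase. The 2 libraries of untreated cells overlapped for the neighbours Fkbp4 and Stip1, and no other neighbours in this order overlapped. The order of Nr3c1 and Fkbp5 was the other way round in treated cells. In the Dex group Fkbp5 reached 563 per kilobase, above 69.4% of genes, while Nr3c1 stood at 334, above 57.4%. With both drugs the values were 575 for Fkbp5 and 333 for Nr3c1. Fkbp4 and Stip1 overlapped in the Dex libraries too, and with both drugs Stip1 (6880 per kilobase) lay just above Fkbp4 (6540). These levels rest on exon lengths of a later annotation (GENCODE M21, GRCm38) and are approximate.

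**Figure D1:**
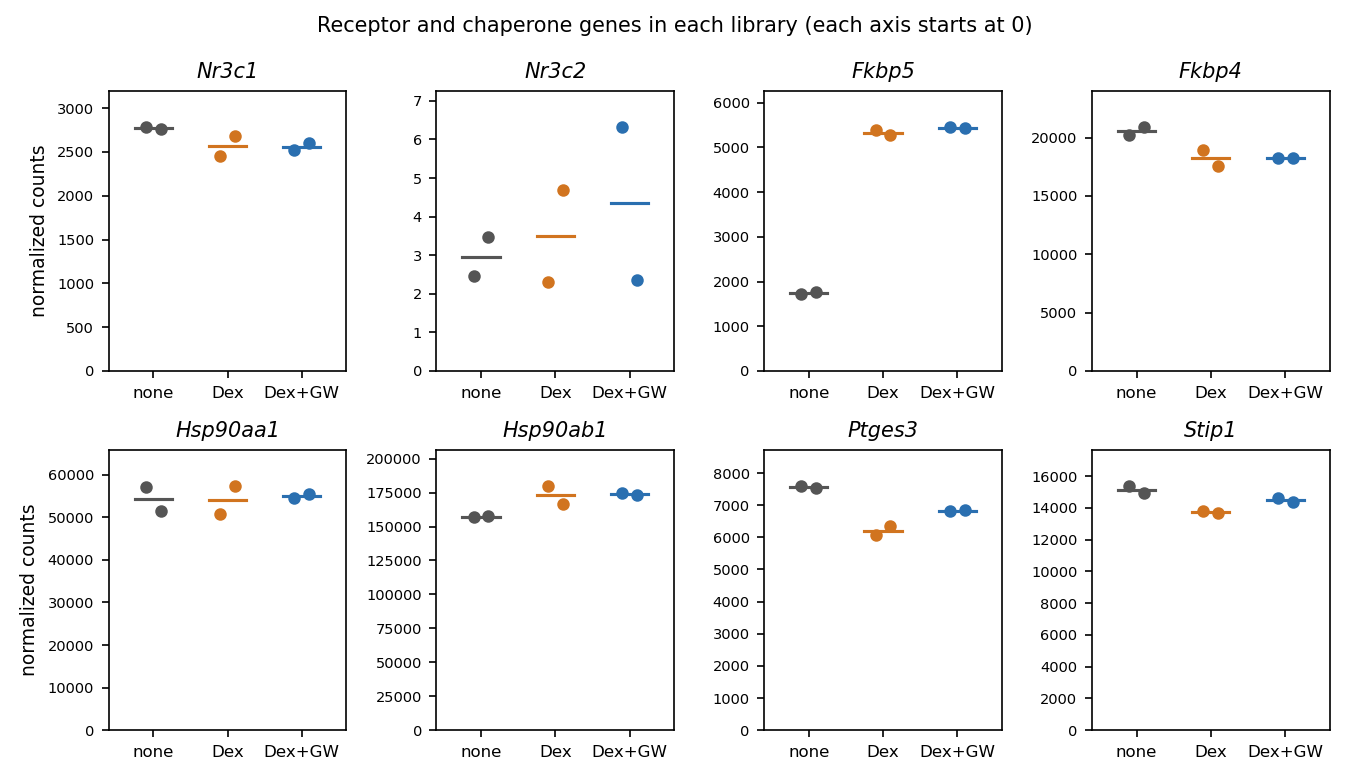
Normalized counts (vertical axes, each starting at 0) of the 8 genes in each library; points are libraries, lines are group means, and the groups are untreated (none), Dex, and Dex with GW7647. Fkbp5 is the gene whose treated libraries (5273 to 5457) stand far above the untreated ones (1715 and 1769); Nr3c2 had 2 to 7 reads a library.

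With Dex against untreated cells, 2 of the 7 tested members rose (Fkbp5 and Hsp90ab1), 3 fell (Ptges3, Fkbp4 and Stip1) and 2 were not called (Nr3c1 and Hsp90aa1). This was a comparison in which 51.6% of all tested genes were called, 25.5% higher and 26.0% lower, so the number of members called says little about them. The sizes differed more than the calls: Fkbp5 rose 3.06-fold, while Hsp90ab1 rose by 10.1%, Stip1 fell by 9.37%, Fkbp4 fell by 11.4% and Ptges3 fell by 17.9%. The median difference of the 7 members was -0.11 on the log2 scale, beside 0.01 over all tested genes. In 6 of the 7 the untreated and Dex libraries did not overlap, as in 73.0% of all tested genes, so this count sets nothing apart. The choice of scaling matters for the small differences. Scaling by total counts in place of TMM moved the median of all tested genes from 0.01 to 0.14, and called 56.9% of genes, 38.6% higher and 18.3% lower. Of the member calls, those of Fkbp5, Hsp90ab1 and Ptges3 held under that scaling, and those of Fkbp4 and Stip1 did not.

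When GW7647 was added to Dex, none of the 7 tested members was called by edgeR, in a comparison in which 9.73% of all tested genes were called, 2.15% higher and 7.58% lower. At an unadjusted p below 0.05 there was 1 member, Ptges3 (edgeR adjusted p = 0.0903), and DESeq2 and limma-trend called none. The median difference of the members was 0.03, beside 0.0 over all tested genes, and the libraries did not overlap in 3 of the 7, where they did not in 53.5% of all tested genes. With both drugs against untreated cells, 2 members rose (Fkbp5 and Hsp90ab1), 2 fell (Fkbp4 and Ptges3) and 3 were not called, where 49.7% of all genes were called, 24.7% higher and 25.1% lower (58.0%, 38.8% and 19.2% with total count scaling, under which no member was called lower). The 3 comparisons share libraries. Both contrasts with untreated cells use the same 2 untreated libraries. The Dex libraries serve in Dex against untreated and in both drugs against Dex. The libraries of both drugs serve in both comparisons that include GW7647. The values of the 3 comparisons are therefore given side by side and are not separate evidence.

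**Figure D2:**
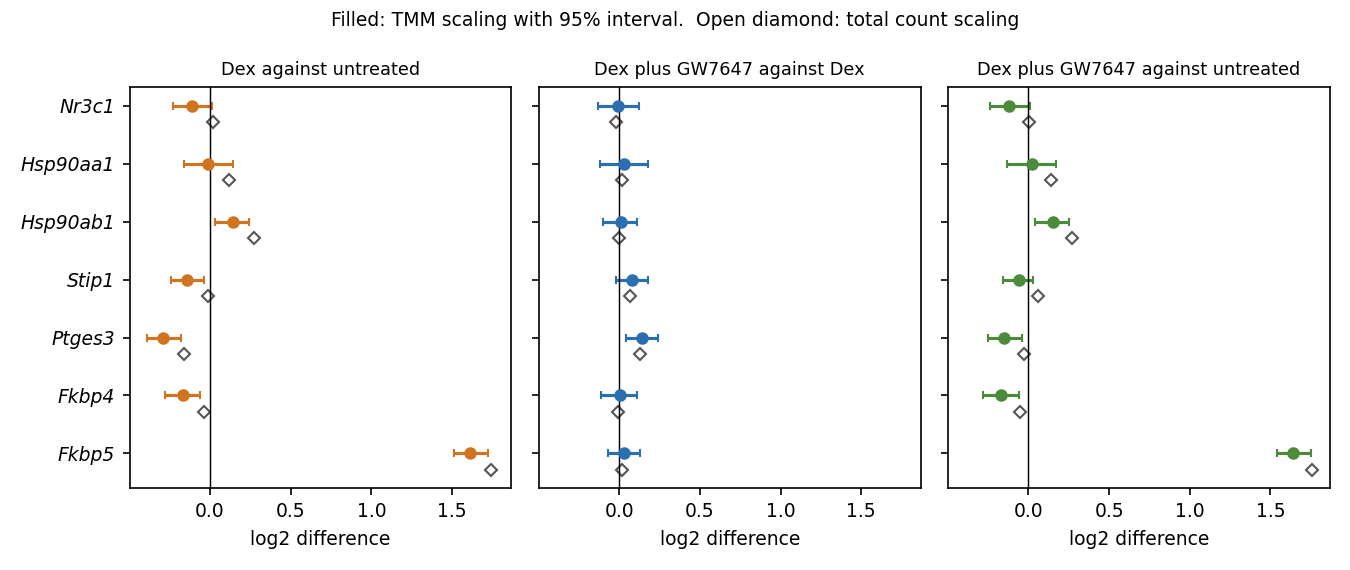
Log2 differences (horizontal axes) of the 7 tested members in the 3 comparisons; filled points with bars are TMM-scaled estimates with 95% intervals, and open diamonds are the estimates with total count scaling. Fkbp5 stands at 1.61 and 1.64 in both comparisons with untreated cells and at 0.03 when GW7647 was added, and the diamonds of the other members lie to the right of their points in both comparisons with untreated cells.

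The receptor gene Nr3c1 was close to the same level in every library. It had 2784 and 2767 normalized counts in untreated cells, 2458 and 2680 with Dex, and 2518 and 2601 with both drugs. Both treated groups lay below both untreated libraries without overlap, by a margin smaller than the gap between the 2 Dex libraries. The difference with Dex was -0.11 ± 0.05 on the log2 scale (SE; 95% interval -0.23 to 0.01, edgeR adjusted p = 0.112), and with both drugs against untreated it was -0.12 ± 0.05 (adjusted p = 0.103). These intervals exclude a fall beyond -0.24 and a rise beyond 0.01 under TMM scaling. Total count scaling gave 0.02 and 0.002 in place of these values. Without Dex replicate 2 a fall was called both with Dex (-0.19, adjusted p = 0.0142) and with both drugs against untreated (-0.12, adjusted p = 0.0411), and the 4 compared libraries alone also gave a call for the latter (-0.13, adjusted p = 0.0315). Adding GW7647 to Dex gave -0.01 ± 0.05 (interval -0.13 to 0.12, adjusted p = 0.972).

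The mineralocorticoid receptor gene Nr3c2, whose protein binds glucocorticoids with high affinity, was barely detected. It had 2 and 3 reads in the untreated libraries, 3 and 5 with Dex, and 7 and 2 with both drugs, against library totals of at least 35970286. The groups overlapped, the gene did not pass the filter on low counts, and a difference was not detectable at this depth. The other receptors of the steroid hormone family were as low: Esr1 (oestrogen receptor α) had from 0 to 5 reads a library, Esr2 (oestrogen receptor β) 1 read in a single library, and Pgr (progesterone receptor) 0, which allows up to 3 reads a library. None of the 4 genes on this list could be tested. Among the steroid hormone receptor genes named here, Nr3c1 was the one detected above a few reads a library.

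Fkbp5 had the largest difference among the members. Its libraries gave 1715 and 1769 normalized counts untreated, 5388 and 5273 with Dex, and 5457 and 5435 with both drugs. The 4 treated libraries lay within a narrow band far above the untreated ones. The mean went from 1742 ± 38.1 (SD, n = 2) to 5331 ± 81.2 with Dex, a log2 difference of 1.61 ± 0.05 (SE, edgeR adjusted p = 6.36e-09), and stood at 5446 ± 15.5 with both drugs (1.64 ± 0.05, adjusted p = 7.73e-09). Among all 14125 tested genes, 5.16% were called and at least 2-fold higher with Dex, and Fkbp5 ranked 355 by the size of its rise and 55 by p. Adding GW7647 gave 0.03 ± 0.04 (95% interval -0.07 to 0.13, adjusted p = 0.732), so a change of Fkbp5 larger than 0.13 on the log2 scale in either direction lies outside the interval. The rise was called under each of the 13 alternative settings tried, between 1.59 and 1.74.

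The sequence just before the start of transcription is shown for Fkbp5, the member with the large response, and for its relative Fkbp4, which did not share it. Both are the 250 bases before the start that RefSeq gives, on the minus strand of GRCm38.p6, printed 5′ to 3′ in the gene's direction, with motif matches in capitals. For Fkbp5 the window is chr17:28486150-28486399, and for Fkbp4 it is chr6:128438657-128438906.
Fkbp5: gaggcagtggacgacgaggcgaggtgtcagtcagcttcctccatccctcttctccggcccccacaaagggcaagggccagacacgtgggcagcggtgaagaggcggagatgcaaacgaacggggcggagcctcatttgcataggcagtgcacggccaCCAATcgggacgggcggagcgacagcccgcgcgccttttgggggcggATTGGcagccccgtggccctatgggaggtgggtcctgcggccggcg
Fkbp4: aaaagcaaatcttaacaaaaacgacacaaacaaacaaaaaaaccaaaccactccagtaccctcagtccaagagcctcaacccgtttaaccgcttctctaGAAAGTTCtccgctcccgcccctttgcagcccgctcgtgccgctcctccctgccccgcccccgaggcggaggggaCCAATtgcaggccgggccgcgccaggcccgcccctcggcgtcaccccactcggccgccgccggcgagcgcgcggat

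The capitals mark a CCAAT box 93 bases before the start of Fkbp5 and its reverse complement ATTGG 46 bases before, and in Fkbp4 a CCAAT box 76 bases before and GAAAGTTC 151 bases before. The last is a match to GAANNTTC, a pair of facing heat shock element units. Motifs were searched on both strands in windows that also hold 50 bases after the start. Nr3c1, Hsp90aa1 and Hsp90ab1 had no window that could be used and were not searched. The other 5 of the 8 members had one. CCAAT was found in 4 of these (Fkbp4, Fkbp5, Nr3c2 and Stip1) and in 37.4% of all 32851 promoter windows. GAANNTTC was found in Fkbp4 and Nr3c2 and in 7.86% of all windows. The outward pair TTCNNGAA was in none of the 5 member windows and in 8.52% of all windows. The full palindrome of the glucocorticoid response element, GNACA and TGTNC set 3 bases apart, was in none of the 5 member windows and in 0.475% of all windows. It was present in 3 of the 11 windows of listed receptor targets (Fam107a, Mt1 and Sgk1). The windows say nothing of sites farther away, and a match is a match of letters, not a measured binding site.

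Fkbp4, which encodes the immunophilin FKBP52, fell slightly. Its normalized counts were 20266 and 20905 untreated, 18905 and 17574 with Dex, and 18288 and 18284 with both drugs. The 4 treated libraries lay below the untreated ones without overlap. With Dex it fell by 11.4% (log2 -0.17 ± 0.05, SE, edgeR adjusted p = 0.0138), and with both drugs against untreated the difference was -0.17 (adjusted p = 0.0159). Total count scaling reduced these to -0.04 (adjusted p = 0.48) and -0.05 (adjusted p = 0.413), and the call with Dex was also lost without untreated replicate 2 (adjusted p = 0.0774). With both drugs the call was lost without untreated replicate 2 (adjusted p = 0.0876) and without either library of both drugs (adjusted p = 0.102 and 0.105). Adding GW7647 gave 0.004 ± 0.05 (interval -0.11 to 0.11).

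The ratio of the paired immunophilins inside each library does not depend on scaling. Fkbp5 transcripts per kilobase were 0.025 of those of Fkbp4 in both untreated libraries, 0.0841 and 0.0886 with Dex, and 0.0881 and 0.0878 with both drugs. The ratio was 3.46-fold higher with Dex and 3.52-fold higher with both drugs than in untreated cells, and Fkbp4 remained the more abundant transcript throughout. An exact two-sided permutation test of 2 against 2 libraries gave p = 0.333 for both, which is the smallest p that this design allows (12 ratio comparisons were made). The ratio of Fkbp5 to Nr3c1 per kilobase went the same way, from log2 values of -1.0 and -0.95 in untreated libraries to 0.83 and 0.68 with Dex and 0.81 and 0.76 with both drugs. That is a 3.31-fold higher ratio with Dex, with all treated libraries above 0 and all untreated ones below it (exact permutation p = 0.333).

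**Figure D3:**
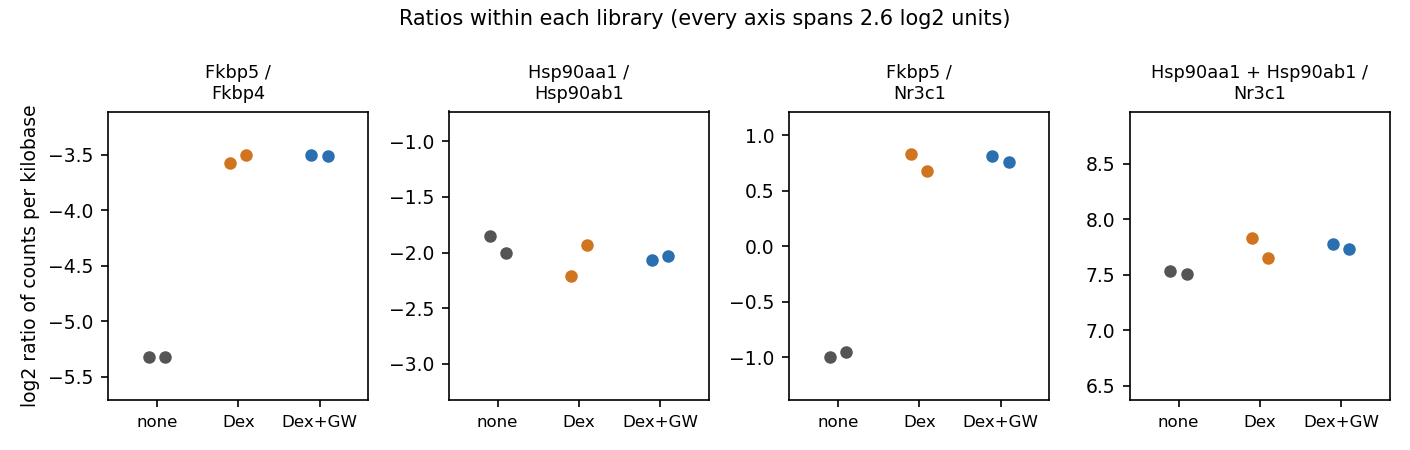
Log2 ratios of counts per kilobase within each library (vertical axes, all spanning the same range) for 4 pairs of members; points are libraries of untreated cells (none), Dex, and Dex with GW7647. Both ratios with Fkbp5 are higher in the treated libraries by 1.73 to 1.82, and the ratio of the HSP90 genes overlaps between untreated and Dex.

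The other FKBP genes did not move as one group. Of 12 listed, 11 could be tested, and with Dex 4 rose, 1 fell and 6 were not called. Over all tested genes 25.5% were called higher and 26.0% lower. The median of the 11 was 0.2 on the log2 scale. With total count scaling 7 rose and 1 fell, beside 38.6% of all tested genes called higher and 18.3% lower. The gene that could not be tested, Fkbp10, had from 0 to 5 reads a library. Fkbp14, an isomerase of the endoplasmic reticulum, rose from 25.7 and 27.8 normalized counts to 76.4 and 71.3 (log2 1.46 ± 0.21, SE, edgeR adjusted p = 0.000216). Fkbp1a, which encodes FKBP12, the binding partner of the drugs FK506 and rapamycin, rose from 5358 and 5610 to 7837 and 8183 (0.55 ± 0.05, adjusted p = 8.51e-06). The closely related Fkbp1b was scarcer and rose by 0.59 (adjusted p = 0.00719, and 0.0626 with DESeq2). Fkbp9, another protein of the endoplasmic reticulum, fell from 458 and 488 to 211 and 218 (-1.15 ± 0.09, adjusted p = 4.98e-06). The not-called genes were Fkbp2 (-0.03), Fkbp3 (0.1), Fkbp7 (0.37), Fkbp8 (-0.01), Fkbp11 (0.28) and Fkbp15 (0.07), of which total count scaling called Fkbp3 (0.23), Fkbp11 (0.41) and Fkbp15 (0.2) higher. Values of Fkbp3, Fkbp7 and Fkbp11 turned on single libraries: Fkbp3 was 0.2 (called) without Dex replicate 1 and -0.01 without Dex replicate 2. Fkbp11 was 0.45 (called) without Dex replicate 2, 0.43 without untreated replicate 2, 0.14 without untreated replicate 1 and 0.04 without Dex replicate 1, and it was called with no filter on low counts (0.3). Fkbp7 ran from 0.14 without untreated replicate 1 to 0.64 without untreated replicate 2, and was called in neither. Adding GW7647 lowered 1 of the 11, Fkbp1a, to 6615 and 6754 (-0.26 ± 0.05, edgeR adjusted p = 0.0077), beside 7.58% of all tested genes called lower. The call of Fkbp1a was lost without either library of both drugs.

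**Figure D4:**
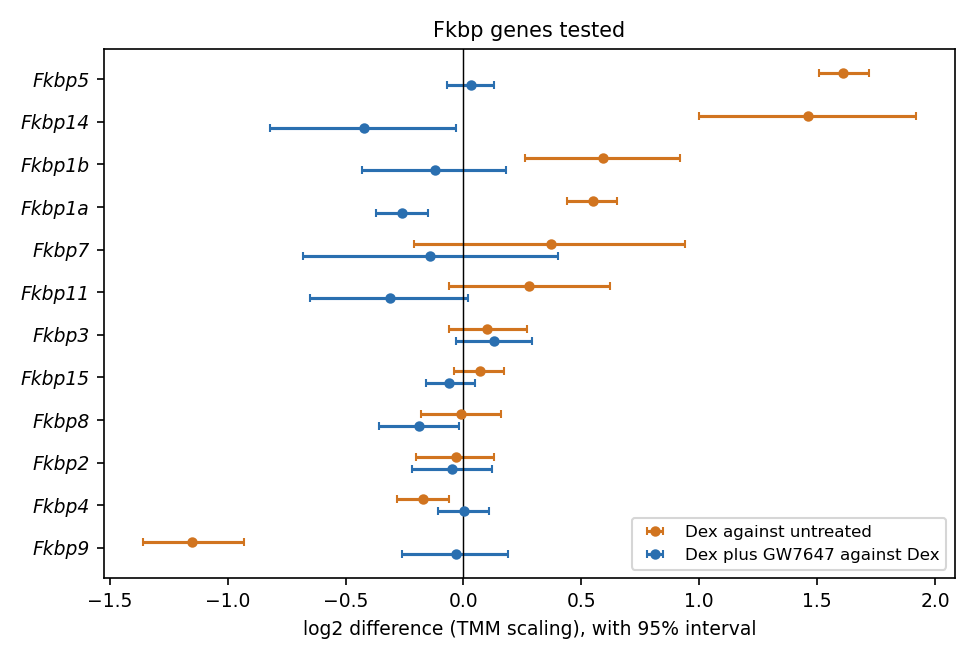
Log2 differences (horizontal axis) with 95% intervals of the 12 tested genes with an Fkbp symbol, for Dex against untreated (orange) and Dex plus GW7647 against Dex (blue). Fkbp5 at 1.61 and Fkbp14 at 1.46 lie farthest to the right with Dex and Fkbp9 at -1.15 farthest to the left, and the interval of Fkbp14 is far wider than that of Fkbp5.

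The gene of the constitutive HSP90β, Hsp90ab1, was slightly higher after treatment. Its normalized counts were 156757 and 157449 untreated, 179602 and 166247 with Dex, and 174559 and 173331 with both drugs. No treated library overlapped the untreated ones, and the Dex libraries lay farther from each other than those of any other group. The rise with Dex was 10.1% (log2 0.14 ± 0.05, SE, interval 0.03 to 0.24, edgeR adjusted p = 0.0319), and with both drugs the difference from untreated was 0.15 (adjusted p = 0.0255). The call with Dex held in 5 of 13 alternatives. It was lost with limma-trend (adjusted p = 0.0887), and without Dex replicate 1 the difference was 0.08 (adjusted p = 0.129), while total count scaling gave 0.27 (adjusted p = 0.00107). Leaving out either untreated library also ended the call (adjusted p = 0.0911 and 0.0791), as did leaving out either library of both drugs (0.0721 and 0.0708). For both drugs against untreated, limma-trend gave no call (adjusted p = 0.0718), nor did the fits without any one of the 4 compared libraries (adjusted p from 0.0664 to 0.141).

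The gene of the inducible HSP90α, Hsp90aa1, was not called in any of the 3 comparisons. Untreated cells gave 57018 and 51507 normalized counts, Dex 50727 and 57274, and both drugs 54551 and 55532. The groups overlapped, and the libraries within the untreated and the Dex group differed by more than the group means did. The difference with Dex was -0.01 ± 0.07 (interval -0.16 to 0.14, adjusted p = 0.94). This gene's count is uncertain, because 47.49% of its 50-base words also occur in other annotated genes, mostly the processed pseudogenes Gm12346 (41.79%) and Gm5844 (29.88%). With the counts of both pseudogenes added, an alternative chosen after seeing the data, the difference was -0.002 (adjusted p = 0.978). The log2 ratio of Hsp90aa1 to Hsp90ab1 per kilobase was -1.85 and -2.0 untreated, -2.21 and -1.93 with Dex, and -2.07 and -2.03 with both drugs. The untreated and Dex libraries overlapped (exact permutation p = 0.667).

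Summed over both cytosolic HSP90 genes, transcripts per kilobase relative to Nr3c1 gave log2 values of 7.53 and 7.51 untreated, 7.83 and 7.65 with Dex, and 7.78 and 7.73 with both drugs. The ratio was 1.17-fold higher with Dex, and the libraries did not overlap (exact permutation p = 0.333, the smallest possible). The HSP90 genes of other compartments showed no call with Dex: Hsp90b1 (GRP94, of the endoplasmic reticulum) differed by -0.11 (adjusted p = 0.141) and Trap1 (mitochondrial) by 0.1 (adjusted p = 0.072). Leaving out untreated replicate 2 gave a called fall of Hsp90b1 (-0.19, adjusted p = 0.0225), and Trap1 was called higher with total count scaling (0.23, adjusted p = 0.00127). Against untreated cells both were called with both drugs, Hsp90b1 lower (-0.19, adjusted p = 0.0176) and Trap1 higher (0.19, adjusted p = 0.00542). That fall of Hsp90b1 was lost with total count scaling (adjusted p = 0.291), without untreated replicate 1 (adjusted p = 0.155) and without either library of both drugs (adjusted p = 0.0723 and 0.123), and that rise of Trap1 without replicate 2 of both drugs (adjusted p = 0.0586).

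Ptges3, which encodes p23, had the clearest fall among the members. Its normalized counts were 7586 and 7522 untreated, 6059 and 6339 with Dex, and 6813 and 6841 with both drugs. The 3 groups did not overlap, with the libraries of both drugs between the others. With Dex it fell by 17.9% (log2 -0.29 ± 0.05, SE, interval -0.39 to -0.18, edgeR adjusted p = 0.000515). It was called in each of the 14 alternatives, between -0.33 and -0.16. With both drugs the difference from untreated was -0.15 (adjusted p = 0.0233), so that it fell by 9.63%; this was called in 7 of 13 alternatives and was lost with total count scaling (-0.03, adjusted p = 0.634), and without any one of the untreated libraries or those with both drugs (adjusted p from 0.0701 to 0.147). From Dex to both drugs the difference was 0.14 ± 0.05 (interval 0.04 to 0.24), which did not pass (adjusted p = 0.0903) and did pass without Dex replicate 2 (0.18, adjusted p = 0.0453). Of this gene's 50-base words, 19.46% also occur in the pseudogene Ptges3-ps, and adding its counts gave -0.3 with Dex (adjusted p = 0.000357).

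Stip1, the gene of the adaptor HOP, had 15360 and 14948 normalized counts untreated, 13804 and 13662 with Dex, and 14616 and 14392 with both drugs. The groups did not overlap, and those with both drugs again lay between the others. With Dex it fell by 9.37% (log2 -0.14 ± 0.04, SE, edgeR adjusted p = 0.02), the smallest of the called falls among the members. It was called in 7 of 13 alternatives and came to -0.01 with total count scaling (adjusted p = 0.831). Leaving out untreated replicate 1 ended the call (adjusted p = 0.109), as did leaving out either library of both drugs (adjusted p = 0.0604 and 0.0618). Neither the comparison of both drugs with untreated (-0.06, adjusted p = 0.257) nor that of both drugs with Dex (0.08, adjusted p = 0.305) was called.

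Of 20 other cochaperones of HSP70 and HSP90 tested, 6 rose, 4 fell and 10 were not called with Dex. Over all tested genes 25.5% were called higher and 26.0% lower, so these counts say little about the list. The median was 0.05 on the log2 scale. With total count scaling 10 rose and 2 fell, beside 38.6% of all tested genes called higher and 18.3% lower. Unc45a, an HSP90 co-chaperone that assists the folding of myosin, rose from 1934 and 1931 normalized counts to 3371 and 2949 (0.71 ± 0.06, SE, edgeR adjusted p = 1.01e-05). Ttc4, a tetratricopeptide co-chaperone, fell from 1943 and 1847 to 1225 and 1221 (-0.63 ± 0.05, adjusted p = 6.02e-06). Of the J-domain proteins that start the HSP70 cycle, Dnaja1 rose by 0.39 (adjusted p = 0.00108) and Dnajb6 fell by 0.28 on the log2 scale (adjusted p = 0.00105). Adding GW7647 lowered 1 of the 20, Unc45a, to 2560 and 2549 (-0.31, edgeR adjusted p = 0.0133), beside 7.58% of all tested genes called lower. The call of Unc45a was lost without either library of both drugs.

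Among the coregulators through which the bound receptor acts on chromatin, 1 of 19 tested rose and 8 fell with Dex, with a median of -0.06. Over all tested genes 25.5% were called higher and 26.0% lower. The balance of the list moved with the scaling, mainly through its rises, since total counts gave 7 higher and 7 lower. Under total counts 38.6% of all tested genes were called higher and 18.3% lower. Nrip1, a corepressor of nuclear receptors, fell from 5729 and 5430 normalized counts to 3416 and 3442 (-0.7 ± 0.05, SE, edgeR adjusted p = 1.36e-06). Ncoa3, a p160 coactivator, fell from 2259 and 2147 to 1314 and 1312 (-0.75 ± 0.06, adjusted p = 3.16e-06). Ncoa2 (GRIP1), a coactivator of the same family, fell by 0.44 and Crebbp, a histone acetyltransferase, by 0.48 on the log2 scale. GW7647 added to Dex moved 2 of the 19, in opposite directions, beside 2.15% of all tested genes called higher and 7.58% lower. Nrip1 rose to 4447 and 4382 (0.36, edgeR adjusted p = 0.00105). Ncoa3 fell further to 976 and 1053 (-0.37, edgeR adjusted p = 0.00333), a call lost without replicate 1 of both drugs.

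For nuclear import and transport of the receptor, 6 of 8 listed genes matched a row and were tested. With Dex 1 rose, 3 fell and 2 were not called, beside 25.5% of all tested genes called higher and 26.0% lower. The median of the 6 was -0.13. Total count scaling gave 1 rise and 1 fall, beside 38.6% of all tested genes called higher and 18.3% lower. The importins Kpna1 (-0.42) and Kpnb1 (-0.17) and the dynein heavy chain Dync1h1 (-0.15, adjusted p = 0.0406) fell, and Ipo8 rose by 0.18 (adjusted p = 0.0296). Total count scaling kept the call of Kpna1 and lost those of Kpnb1 (-0.04) and Dync1h1 (-0.02). Leaving out Dex replicate 2 or either library of both drugs ended the calls of both Dync1h1 (adjusted p = 0.131, 0.0814 and 0.0837) and Ipo8 (adjusted p = 0.191, 0.054 and 0.0546). Leaving out untreated replicate 1 ended that of Dync1h1 (adjusted p = 0.227), and leaving out untreated replicate 2 that of Ipo8 (adjusted p = 0.206). None of the 6 was called when GW7647 was added, beside 9.73% of all tested genes. Of 5 genes that activate, inactivate or export glucocorticoids, 3 were tested and 2 fell, beside 26.0% of all tested genes called lower. The largest difference, at least 2-fold, was in 1 gene not reported here by name. H6pd, which supplies NADPH to the activating enzyme 11β-HSD1, fell from 1280 and 1304 to 1041 and 1028 normalized counts (-0.32, adjusted p = 0.000823). Abcb1b, an export pump, gave -0.23 (adjusted p = 0.161).

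Of 13 other known target genes of the receptor, 12 were tested: with Dex 8 rose, 1 fell and 3 were not called, with a median of 1.02, beside 25.5% of all genes called higher and 26.0% lower. These targets were listed with earlier results of the same libraries known, so their direction is no independent evidence. Mt2, a metallothionein, rose from 208 and 256 normalized counts to 10332 and 10067 (log2 5.46). Ddit4, an inhibitor of mTORC1, rose by 1.74, close to Fkbp5 at 1.61, and Tsc22d3 (GILZ) and the mRNA decay factor Zfp36l2 rose by 1.34 and 1.24. Adding GW7647 to Dex lowered 5 of the 12, beside 7.58% of all tested genes called lower and 2.15% higher. Among the 5 were Tsc22d3 (-0.24, edgeR adjusted p = 0.0214) and Zfp36l2 (-0.19, edgeR adjusted p = 0.0255). Neither of these falls was called without Dex replicate 1 (adjusted p = 0.0678 for Tsc22d3 and 0.0719 for Zfp36l2) or without either library of both drugs (adjusted p from 0.14 to 0.213), and the number of targets lowered was then 2 or 3. Fkbp5 (0.03), Mt2 (0.02) and Ddit4 (-0.1) were not called in that comparison, and whether these genes differ from Tsc22d3 in it was not tested.

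The genes whose pattern over the 6 libraries lay nearest to that of Fkbp5 were found by the distance between log2 normalized counts centred on each gene's mean, over 11276 genes. They were Kit (distance 0.074), Clcn2 (0.0866), Tbc1d8 (0.102), Cep170b (0.12) and Vat1 (0.164), and 11 genes lay within 0.2, where the median distance was 1.88. Kit, the receptor for SCF, had 4270 and 4311 normalized counts untreated, 12682 and 12630 with Dex, and 12795 and 12886 with both drugs. For Nr3c1 the nearest were Gosr1 (0.0376), Atf2 (0.0408), Slc25a40 (0.0422), Mrpl44 (0.0463) and Arhgap17 (0.0536), with 1674 genes within 0.2, as many genes were close to flat. These distances describe 6 libraries in 3 groups.

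Markers of cell types moved between the same groups. The sum over 9 erythroid markers was 2093760 to 2204423 normalized counts untreated, 951098 to 980999 with Dex and 962414 to 971987 with both drugs, and 7 of the 9 fell with Dex. Of all tested genes, 25.5% were called higher and 26.0% lower with Dex. When GW7647 was added to Dex, these shares were 2.15% and 7.58%. The 6 megakaryocyte markers summed to 31335 to 33160, 14213 to 15758 and 9823 to 10000. For 7 mast cell and basophil markers the sums were 6135 to 6146, 9753 to 10100 and 5638 to 5744, with Fcer1a under 10 counts in every library. The mast cell genes did not move together with Dex, since 2 of the 6 tested were called higher and 4 lower, and all 6 were lower when GW7647 was added. The 6 granulocyte markers gave 13235 to 14519, 6083 to 6441 and 3870 to 3946, and the 5 monocyte and macrophage markers 1637 to 1698, 701 to 744 and 499 to 509. The 4 endothelial and stromal markers gave 601 to 604, 228 to 254 and 135 to 140, with Cdh5, Col1a1 and Col3a1 under 10 counts. The 4 lymphoid markers (Cd3e under 10 counts in every library) summed to 35.8 to 36.7, 21.6 to 24.4 and 16.5 to 19.9. The 4 hepatoblast markers summed to 17.3 to 22.0 untreated, 191 to 196 with Dex and 120 to 128 with both drugs; Alb and Ttr were under 10 counts in every library, and the 2 tested were called higher with Dex and 1 of them lower when GW7647 was added. No marker was at 0 in all libraries. In bulk RNA, fewer cells of a type and less RNA per cell cannot be told apart, and the part of these shifts in the values of the 8 genes was not tested.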

How the data were processed

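Gene expression was measured by polyA RNA sequencing (TruSeq libraries from TRIzol RNA, per the labels) in 6 libraries, 2 each of untreated, Dex, and Dex plus GW7647 cells. The submitters' processing notes name TopHat 1.4.1, HTSeq and DESeq, with builds mm9 and NCBIM37; whether counting used strand is not given in the sources used here. The deposited values used are whole-number read counts per Ensembl gene and library, which per the file headers come in 2 tables. Both tables hold the libraries of both drugs, with equal counts for all 37620 genes. Symbols and exon lengths came from GENCODE M21 (GRCm38), and a symbol was found for 32897 genes (87.45%). Lengths may therefore differ from those of the build used for counting. Promoter sequences came from RefSeq (GRCm38.p6).

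All 6 libraries were analysed together with edgeR 4.0.16 in R 4.3.3: filterByExpr with a minimum count of 10, TMM scaling, the quasi-likelihood test with group as the only term, and Benjamini-Hochberg adjustment over 14125 genes. Each log2 difference is the group named first minus the group named second. Alternatives were DESeq2 1.42.0, limma-trend (limma 3.58.1), total count scaling, no filter, the 4 compared libraries alone, a replicate block, and leaving out each library, where a lone library is assumed to vary like the other groups; the count scripts were tested on simulated data. Sequence shared between genes was counted as 50-base words of the annotated transcripts.

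The members and all gene lists were chosen with earlier results of these data known. Genes named beside the 8 members were, from each of 8 pathway lists (83 genes), up to 4 with the smallest p with Dex and a mean of at least 50 normalized counts, any member of the HSP90, FKBP and steroid receptor lists, and the 5 genes nearest to Fkbp5 and to Nr3c1. Genes singled out in promoters or as pseudogenes were chosen after their values were seen. Some members of these lists are counted in them and not reported here by name.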

Additional observations from a re-analysis of the deposited data

How the results depend on the processing

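Against untreated cells, Fkbp5 kept its direction and its call in every alternative, and Ptges3 did so for Dex; the other member calls are small and depend on scaling, on single libraries or on both, and 2 libraries a group limit what could be seen. Where no value below shows a cause, the cause was not tested. With total count scaling, Dex gave Nr3c1 0.02, Fkbp4 -0.04, Hsp90aa1 0.12, Stip1 -0.01, Fkbp2 0.1, Fkbp8 0.12 and Hsp90b1 0.02; GW7647 added to Dex gave Fkbp4 -0.01 and Hsp90ab1 -0.002; and both drugs against untreated gave Nr3c1 0.002, Fkbp4 -0.05, Ptges3 -0.03 and Stip1 0.06. Under that scaling 1 member was called lower with Dex (3 with TMM), 0 with both drugs against untreated (2 with TMM), and 35 other pathway genes higher with Dex (20 with TMM). Without the filter on low counts, which tests more genes, Dex gave Hsp90aa1 0.01, Fkbp8 0.01 and Stip1 -0.12, and both drugs against untreated gave Ptges3 -0.13, with 1 member called lower; 2 other pathway genes were called higher for GW7647 added to Dex (1 with the filter). With limma-trend, Hsp90ab1 was not called with Dex (0.14) or with both drugs (0.15), which left 1 member called higher in each. DESeq2 gave Fkbp4 -0.0002 for GW7647 added to Dex. On the 4 compared libraries alone, Dex gave Hsp90ab1 0.14 and Stip1 -0.14, neither called, with 1 member called higher, and both drugs against untreated gave Nr3c1 -0.13, called.

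Leaving out each library in turn, the Dex difference ran from -0.19 to -0.05 for Nr3c1, -0.23 to -0.14 for Fkbp4, -0.11 to 0.08 for Hsp90aa1, 0.08 to 0.18 for Hsp90ab1, -0.16 to -0.12 for Stip1, -0.13 to 0.07 for Fkbp2, -0.01 to 0.2 for Fkbp3, 0.14 to 0.64 for Fkbp7, -0.14 to 0.09 for Fkbp8 and 0.04 to 0.45 for Fkbp11, with 1 to 2 members called higher. For GW7647 added to Dex it ran from -0.07 to 0.07 for Nr3c1, -0.04 to 0.06 for Fkbp4, -0.06 to 0.13 for Hsp90aa1, -0.04 to 0.07 for Hsp90ab1 and 0.11 to 0.18 for Ptges3, with 0 to 1 members called higher, and with 1 to 4 other pathway genes higher and 2 to 10 lower. For both drugs against untreated it ran from -0.14 to -0.09 for Nr3c1, -0.19 to -0.15 for Fkbp4, -0.05 to 0.1 for Hsp90aa1, 0.14 to 0.15 for Hsp90ab1 and -0.15 to -0.14 for Ptges3, with 1 to 2 members called higher, 0 to 3 lower and 15 to 25 other pathway genes higher.

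The labels do not say that a replicate number marks a shared culture or day, and the libraries were not treated as paired: deviations of same-numbered libraries correlated across genes at -0.212 (untreated and Dex), -0.046 (untreated and both drugs) and 0.149 (Dex and both drugs). With the replicate block, Hsp90ab1 was not called with Dex (0.14, adjusted p = 0.0538), which left 1 member called higher, and the calls of Dync1h1 (adjusted p = 0.0516) and Ipo8 (adjusted p = 0.0541) with Dex and of Tsc22d3 (adjusted p = 0.0563) and Zfp36l2 (adjusted p = 0.0637) for GW7647 added to Dex were also lost. With the numbers of the untreated libraries crossed, an alternative chosen after seeing the data, 2 members were called higher and 3 lower.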

Other observations

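The processed pseudogenes that share sequence with members had counts of their own. Gm12346, which shares sequence with Hsp90aa1, had 20321 and 17776 normalized counts in untreated libraries, 18381 and 20826 with Dex, and 20182 and 20270 with both drugs, and its libraries stood in the same order as those of Hsp90aa1 within the untreated and Dex groups. Gm5844, also like Hsp90aa1, had 4751 and 4563, 4562 and 3898, and 4304 and 3798. Ptges3-ps had 2515 and 2379 untreated, 1907 and 1930 with Dex, and 2220 and 1933 with both drugs, lower in both Dex libraries than in both untreated ones, as Ptges3 was. Reads of a gene and of its copy cannot be told apart where the sequence is shared. How the counting assigned such reads is not given in the sources used here.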
